A study of Homo sapiens with 6 samples.

Results

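Histone demethylases and deacetylases take methyl and acetyl groups off lysines. The 37 genes described here were chosen by name, as 2 flavin-dependent demethylases of the LSD1 type, 17 proteins with the iron-dependent JmjC domain, 11 zinc-dependent deacetylases (HDACs) and 7 sirtuins, and all 37 were found among the 23368 gene symbols of the deposited tables. RNA-seq was done on NB4, an established human cell line of acute promyelocytic leukemia that carries the PML/RARα fusion. Every library thus comes from 1 line. Cells were left not treated or received 10 µM maltonis, a synthetic hydroxypyrone derived from maltol and dissolved in water, for 24 h, with 3 libraries per group and no other agent or genetic change in either. The values are HTSeq read counts per gene symbol from stranded, ribosome-depleted libraries, scaled here to CPM, the share of a library’s total, with the trimmed mean of M-values (TMM). Values per library are given in the order of replicates 1, 2 and 3.

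As background, LSD1 (KDM1A) and KDM1B oxidize mono- and dimethyl lysine with a flavin cofactor and cannot act on trimethyl lysine. JmjC demethylases use iron, oxygen and 2-oxoglutarate, and several of them do remove trimethyl marks. HDAC1, HDAC2 and HDAC3 are the catalytic subunits of the CoREST, NuRD, SIN3 and NCoR corepressor complexes, and PML/RARα is known to recruit corepressors to its target genes, while sirtuins couple deacylation to the breakdown of NAD+.

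Depth ran from 18492154 to 38205483 counts per library. A floor of 3 counts equals 0.0785 CPM at the greatest depth and 0.162 CPM at the least, both before TMM scaling, and covers counting error only. The smallest count of any of the 37 genes in a library was 9. Of 11 myeloid markers, 11 had counts in every library, with a summed level of 14789 to 17249 CPM in not treated and 9153 to 9758 CPM in maltonis-treated libraries. MPO made up most of that sum (means of 14612 and 7425 CPM), while CTSG (109 and 553 CPM), PRTN3 (498 and 705 CPM), AZU1 and PML had higher means with maltonis. Of 16 markers of lymphoid, erythroid, monocytic, epithelial and fibroblast cells, MS4A1 and HBB were among those at 0 throughout, and the summed level of the 16 was 140.5 to 142 CPM without and 69.6 to 72.3 CPM with maltonis, which came mainly from CD3D, CD4, KRT18 and EPCAM. The part of these shifts in the results was not tested. A CPM is a share of the sequenced RNA, so fewer cells that use a gene, less of its RNA per cell and more of other RNA cannot be told apart. A run code in the deposited file names, whose meaning is not stated, sets replicate 1 of each group (batch A) apart from the other replicates (batch B).

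Genes within each of the 4 classes moved in both directions after maltonis. The largest fall among the 37 genes was that of HDAC8. KDM1A fell next most, and HDAC11, HDAC6 and SIRT6 had the largest rises. Of the 37 genes, 15 were higher and 9 lower at a false discovery rate (FDR) under 0.01 (edgeR’s quasi-likelihood test), and 13 did not pass it. That is 40.5% higher and 24.3% lower, beside 31.9% higher and 32.1% lower of the 13209 genes tested in all. Beyond 2.5-fold, 3 were higher and 3 lower, where 9.96% of all tested genes were higher and 10.4% lower. The median log2 fold change of the 37 was 0.04 and that of all tested genes 0.01, and the median size of the change, whatever its direction, was 0.46 and 0.59. By class, 1 LSD1-type gene was higher and 1 lower, 6 JmjC genes were higher and 4 lower, 3 HDAC genes were higher and 2 lower, and 5 sirtuin genes were higher and 2 lower.

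The 2 groups did not overlap for 27 of the 37 genes, 16 of them higher and 11 lower with maltonis, while over all tested genes 38.8% were higher and 37.8% lower without overlap. An exact two-sided permutation test of log2 CPM returned p = 0.1 for each of these 27 genes, which is the lowest value possible with 3 libraries a group. All 24 genes past the FDR had the same direction within either batch. The batches are parts of the 6 libraries that gave these calls, so the shared direction is not separate evidence. The gap between batches had a median of 0.13 on the log2 scale and was largest for KDM6B, at 0.76.

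**Figure D1:**
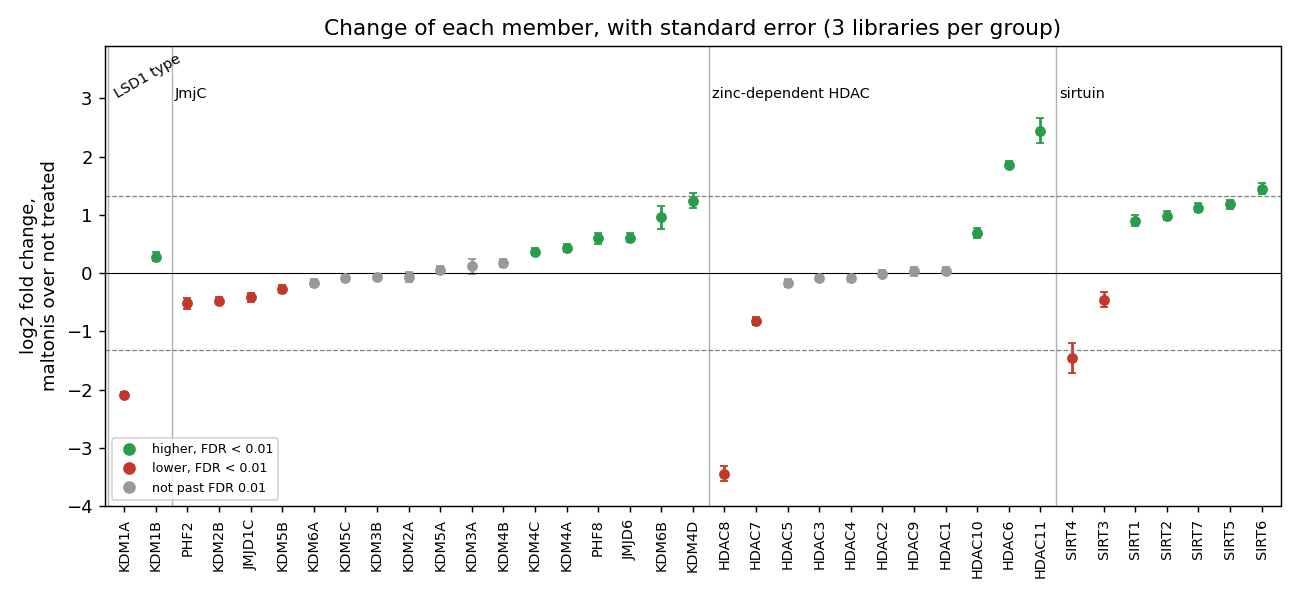
Log2 fold change of each of the 37 genes, maltonis over not treated, by enzyme class, with the standard error from edgeR (3 libraries per group). Green and red points passed an FDR under 0.01, grey points did not, and dashed lines mark 2.5-fold; HDAC8 and KDM1A lie lowest, HDAC11 and HDAC6 highest, and no sirtuin is grey.

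The sequences before the start sites of 4 of the genes that moved beyond 2.5-fold are shown for comparison, since each of these genes has a relative in its class that moved the other way. They are the 250 bases upstream of the first start listed by RefSeq (GRCh38.p14) for KDM1A (chr1:23019218-23019467, plus strand) and HDAC8 (chrX:72572844-72573093, minus strand), which were lower, and for HDAC6 (chrX:48801817-48802066, plus strand) and SIRT6 (chr19:4182564-4182813, minus strand), which were higher. Each is written 5′ to 3′ on the strand of its gene, and capitals mark matches on either strand to the E-box CACGTG, the GC box GGGCGG, the ETS core CCGGAA, the CCAAT box CCAAT or the interferon-stimulated response element. Overlapping matches, as in SIRT6, form 1 run of capitals.

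KDM1A: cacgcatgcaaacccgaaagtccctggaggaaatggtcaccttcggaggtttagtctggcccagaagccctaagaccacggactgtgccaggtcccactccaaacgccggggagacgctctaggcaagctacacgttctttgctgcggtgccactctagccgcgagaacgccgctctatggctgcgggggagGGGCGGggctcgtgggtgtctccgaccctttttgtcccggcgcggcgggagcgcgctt

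HDAC8: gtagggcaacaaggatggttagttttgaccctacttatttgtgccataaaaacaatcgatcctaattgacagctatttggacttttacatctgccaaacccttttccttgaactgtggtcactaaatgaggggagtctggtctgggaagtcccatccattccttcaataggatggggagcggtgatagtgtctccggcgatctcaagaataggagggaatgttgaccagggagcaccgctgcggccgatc

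HDAC6: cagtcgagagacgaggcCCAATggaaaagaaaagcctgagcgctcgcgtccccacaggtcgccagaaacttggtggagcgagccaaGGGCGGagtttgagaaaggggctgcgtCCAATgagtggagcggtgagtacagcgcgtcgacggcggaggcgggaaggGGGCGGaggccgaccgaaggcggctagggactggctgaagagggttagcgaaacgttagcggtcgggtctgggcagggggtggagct

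SIRT6: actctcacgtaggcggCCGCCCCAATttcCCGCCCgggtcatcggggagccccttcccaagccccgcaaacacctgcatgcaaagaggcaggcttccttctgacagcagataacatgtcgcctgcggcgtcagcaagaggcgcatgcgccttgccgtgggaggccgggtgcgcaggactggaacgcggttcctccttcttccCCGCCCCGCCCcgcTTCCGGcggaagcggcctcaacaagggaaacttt

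KDM1A held 1 GC box, HDAC6 held 2 GC boxes and 2 CCAAT boxes, SIRT6 held 4 GC boxes, 1 ETS core and 1 CCAAT box, and the HDAC8 window held no match to any of the 5. Promoter windows were found for 34 of the 37 genes. The GC box was in 9 of the 13 higher and 3 of the 9 lower genes with a window, beside 42.3% of all 27305 windows, and the CCAAT box in 6 of 13 and 1 of 9, beside 33.0%. The ETS core was in 5 of 13 and 2 of 9, beside 14.8% of all windows. The E-box was found before KDM4C and SIRT1, both higher, before none of the 9 lower genes and also before genes that were not called, beside 6.49% of all windows. Over all 34 genes, called or not, the GC box was in 19, the CCAAT box in 13, the ETS core in 9 and the E-box in 4. Of the 34 genes, only PHF8 had the interferon-stimulated response element, beside 3.07% of all windows. These counts describe letters in 1 window per gene, and which start NB4 cells use was not examined. The 27305 windows also cover genes that were not tested here, such as silent ones, whereas all 37 genes were tested.

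KDM1A, the LSD1 demethylase of H3K4 in the CoREST complex, stood at 329, 319.7 and 303 CPM without and 72.9, 74.98 and 75.01 CPM with maltonis. The maltonis libraries lay close together and far under every not treated one, a 4.27-fold fall. The log2 fold change was −2.09 (standard error 0.0578, edgeR adjusted p = 3.00e-08). By batch the difference was −2.17 between the libraries of batch A and −2.05 within batch B. Scaled by length as RPKM over all annotated exons, KDM1A was the most abundant of the 37 in not treated cells, at 58.3 ± 2.44 RPKM (SD, n = 3), and the 10th after maltonis, at 13.7 ± 0.221 RPKM. Its relative KDM1B, which acts on H3K4 without CoREST, moved little and the other way, from 28.6 ± 2.18 to 34.7 ± 0.833 CPM (SD, n = 3; log2 fold change 0.28, standard error 0.0762, edgeR adjusted p = 0.00888). That call was lost in 5 of the 6 fits that left out a library, where the log2 fold change lay between 0.22 and 0.33.

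**Figure D2:**
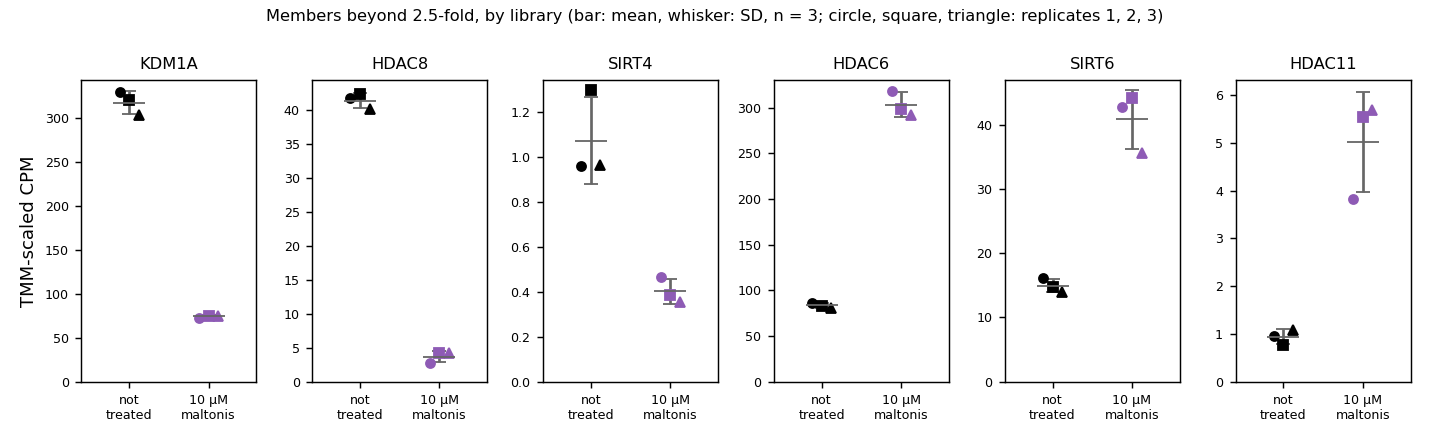
TMM-scaled CPM of the 6 genes beyond 2.5-fold in each library; horizontal bars are means and whiskers SD (n = 3), and each vertical axis starts at 0. In every panel the 3 maltonis-treated libraries lie on one side of the 3 not treated ones; SIRT4 and HDAC11 are at a few CPM or less.

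The JmjC class had 6 genes higher (35.3%), 4 lower (23.5%) and 7 not past the test, beside 31.9% higher and 32.1% lower of all tested genes. The 2 that rose most were among the least expressed. KDM4D, an intronless member of the KDM4 family of H3K9 demethylases, stood at 2.56, 2.65 and 2.96 CPM without and 7.18, 5.91 and 6.43 CPM with maltonis. It had a log2 fold change of 1.24 (standard error 0.128, edgeR adjusted p = 2.96e-05). KDM6B, also called JMJD3, which removes H3K27 trimethylation and is known as an inducible gene in inflammatory signalling, stood at 3.73, 4.11 and 6.12 CPM without and 10.7, 9.28 and 7.74 CPM with maltonis. This gave a log2 fold change of 0.96 (standard error 0.198, edgeR adjusted p = 0.00204). Its highest not treated library lay closest to its lowest maltonis library, and the difference was 1.52 between the libraries of batch A and 0.76 within batch B. The call was lost when not treated replicate 2, maltonis replicate 1 or maltonis replicate 2 was left out (0.86, 0.83 and 0.93, with edgeR adjusted p = 0.0118, 0.0137 and 0.0116). Both genes stayed at a low level, KDM4D at 2.18 and KDM6B at 1.27 RPKM after maltonis.

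JMJD6, a hydroxylase of splicing proteins for which histone arginine demethylation has also been proposed, stood at 45.01, 45.5 and 40.7 CPM without and 69.97, 64.5 and 65.5 CPM with maltonis. That is a log2 fold change of 0.61 (standard error 0.0712, edgeR adjusted p = 6.42e-05). PHF8, which demethylates H3K9 and H4K20, stood at 47.6, 54.8 and 61.6 CPM without and 81.8, 84.1 and 82.5 CPM with maltonis. The fitted log2 fold change was 0.60 (standard error 0.0913, edgeR adjusted p = 3.42e-04). Neither gene’s groups overlapped. KDM4A and KDM4C, demethylases of trimethylated H3K9 and H3K36, were higher by 0.43 and 0.36 on the log2 scale, with standard errors of 0.0703 and 0.0611 and edgeR adjusted p-values of 5.34e-04 and 5.93e-04.

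The JmjC genes that fell did so by less than 1.5-fold. PHF2 had a log2 fold change of −0.52, KDM2B, a CpG-island binding subunit of a Polycomb complex, −0.47, JMJD1C, a KDM3-family protein, −0.41 and KDM5B, a demethylase of trimethylated H3K4, −0.28, with edgeR adjusted p-values of 5.86e-04, 1.44e-04, 0.00108 and 0.00384. KDM5B was not past the test without maltonis replicate 2 or 3, or with total counts as the only scaling (−0.16). KDM3B, an H3K9 demethylase of the KDM3 family, stood at 218, 209.7 and 218 CPM without and 211, 208 and 198 CPM with maltonis. Its groups overlapped and it did not pass the test. The test gave a log2 fold change of −0.07 (standard error 0.0543, edgeR adjusted p = 0.29). The log2 fold changes of the other 6 JmjC genes that did not pass, KDM2A, KDM3A, KDM4B, KDM5A, KDM5C and KDM6A, lay between −0.17 and 0.18.

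In the zinc-dependent HDAC class 6 of 11 genes did not pass the test, and HDAC8, HDAC6 and HDAC11 moved beyond 2.5-fold. Of the class 27.3% were higher and 18.2% lower, beside 31.9% and 32.1% of all tested genes. HDAC8, a class I enzyme that deacetylates the cohesin subunit SMC3, stood at 41.7, 42.3 and 40.2 CPM without and 2.79, 4.18 and 4.19 CPM with maltonis. Its 54, 140 and 118 reads after maltonis lay above the floor of 3 counts, and the fall was 10.9-fold. The log2 fold change was −3.45 (standard error 0.131, edgeR adjusted p = 1.13e-07). By batch it was −3.90 between the libraries of batch A and −3.30 within batch B. In RPKM HDAC8 went from rank 32 to the last rank of the 37 genes, and from rank 29 to rank 36 with the longest transcript as length.

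The other class I genes, which serve the corepressor complexes, had overlapping groups and did not pass the test. HDAC1 stood at 194, 202 and 196 CPM without and 194, 201 and 216 CPM with maltonis. HDAC2 stood at 195, 213 and 209 CPM without and 197, 208 and 209 CPM with maltonis. HDAC3 stood at 107, 112 and 111 CPM without and 103, 101 and 108 CPM with maltonis. Their log2 fold changes were 0.04, −0.01 and −0.08 with standard errors of 0.0589, 0.0595 and 0.0558 (edgeR adjusted p = 0.533, 0.914 and 0.218). HDAC1, at 51.3 ± 2.77 RPKM (SD, n = 3), was the most abundant of the 37 genes after maltonis.

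Class II enzymes shuttle between nucleus and cytoplasm (class IIa) or lie mainly in the cytoplasm (class IIb). HDAC6, the class IIb deacetylase of tubulin and HSP90, stood at 86.8, 83.3 and 80.4 CPM without and 319, 299 and 292 CPM with maltonis, a 3.63-fold rise. It had a log2 fold change of 1.86 (standard error 0.0616, edgeR adjusted p = 5.86e-08). The rise was 1.88 between the libraries of batch A and 1.85 within batch B on the log2 scale. HDAC6 went from rank 16 to rank 3 of the 37 genes, from 7.88 ± 0.299 to 28.6 ± 1.31 RPKM (SD, n = 3). HDAC10, known as a polyamine deacetylase and the other class IIb gene, stood at 21.9, 25.8 and 25.7 CPM without and 41.5, 40.6 and 36.4 CPM with maltonis. This gave a log2 fold change of 0.69 (standard error 0.0901, edgeR adjusted p = 1.33e-04). In the current annotation 55.8% of its exonic bases are shared with MAPK12 on the same strand, so its reads are uncertain; MAPK12 had a log2 fold change of −0.40 (edgeR adjusted p = 0.0166).

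Of class IIa, whose members bind MEF2 factors, HDAC7 fell from 70.3, 69.6 and 70.9 CPM to 43.4, 38.1 and 37.8 CPM, with no overlap. That is a log2 fold change of −0.82 (standard error 0.0719, edgeR adjusted p = 1.03e-05). HDAC4, HDAC5 and HDAC9 did not pass the test, with log2 fold changes of −0.08, −0.17 and 0.03. HDAC11, the single class IV enzyme and a long-chain fatty deacylase, stood at 0.959, 0.773 and 1.09 CPM without and 3.82, 5.55 and 5.68 CPM with maltonis, a 5.43-fold rise from the lowest level of the 37 genes. The fitted log2 fold change was 2.44 (standard error 0.214, edgeR adjusted p = 1.06e-05). It rested on 18, 28 and 36 reads without and 74, 186 and 160 reads with maltonis.

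All 7 sirtuin genes passed the test, 5 of them higher and 2 lower with maltonis. Of all tested genes 31.9% were higher and 32.1% lower. SIRT6, a nuclear deacetylase of H3K9, H3K18 and H3K56, stood at 16.1, 14.8 and 14.02 CPM without and 42.7, 44.1 and 35.6 CPM with maltonis, a 2.74-fold rise. The test gave a log2 fold change of 1.45 (standard error 0.102, edgeR adjusted p = 2.74e-06). SIRT7, a nucleolar deacetylase of H3K18, stood at 28.7, 25.1 and 25.3 CPM without and 61.2, 56.05 and 54.8 CPM with maltonis. The log2 fold change was 1.12 (standard error 0.0806, edgeR adjusted p = 3.06e-06). SIRT1, which deacetylates p53 and histones, stood at 53.5, 65.00 and 67.4 CPM without and 108, 120.5 and 119.8 CPM with maltonis. It had a log2 fold change of 0.90 (standard error 0.0946, edgeR adjusted p = 3.21e-05). The 3 nuclear sirtuins were higher in every maltonis library than in any not treated one. Their log2 differences were 1.41, 1.09 and 1.01 in batch A and 1.46, 1.14 and 0.86 in batch B, in the order SIRT6, SIRT7 and SIRT1.

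SIRT2, a mainly cytoplasmic tubulin deacetylase, stood at 17.5, 16.5 and 15.2 CPM without and 33.05, 32.2 and 32.1 CPM with maltonis. This gave a log2 fold change of 0.99 (standard error 0.0772, edgeR adjusted p = 5.24e-06). SIRT5, the mitochondrial desuccinylase, stood at 23.1, 21.5 and 20.5 CPM without and 49.5, 47.2 and 50.6 CPM with maltonis. That is a log2 fold change of 1.18 (standard error 0.0733, edgeR adjusted p = 1.33e-06). The other mitochondrial sirtuins were lower. SIRT4 stood at 0.959, 1.30 and 0.965 CPM without and 0.465, 0.388 and 0.355 CPM with maltonis (log2 fold change −1.46, standard error 0.254, edgeR adjusted p = 7.55e-04), on 18, 47 and 32 reads without and 9, 13 and 10 reads with maltonis. Without not treated replicate 2, its highest library, the log2 fold change of SIRT4 was −1.28, short of 2.5-fold but past the FDR. SIRT3, the main mitochondrial deacetylase, went from 9.90 ± 1.27 to 7.23 ± 0.722 CPM (SD, n = 3; log2 fold change −0.46, standard error 0.126, edgeR adjusted p = 0.00986), a call lost in 5 of 6 fits without a library and with total counts as the only scaling. In the current annotation 6.08% of its exonic bases lie opposite PSMD13, which had 2565 to 5942 reads per library, and the strand setting of the counting is not given in the sources used here.

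**Figure D3:**
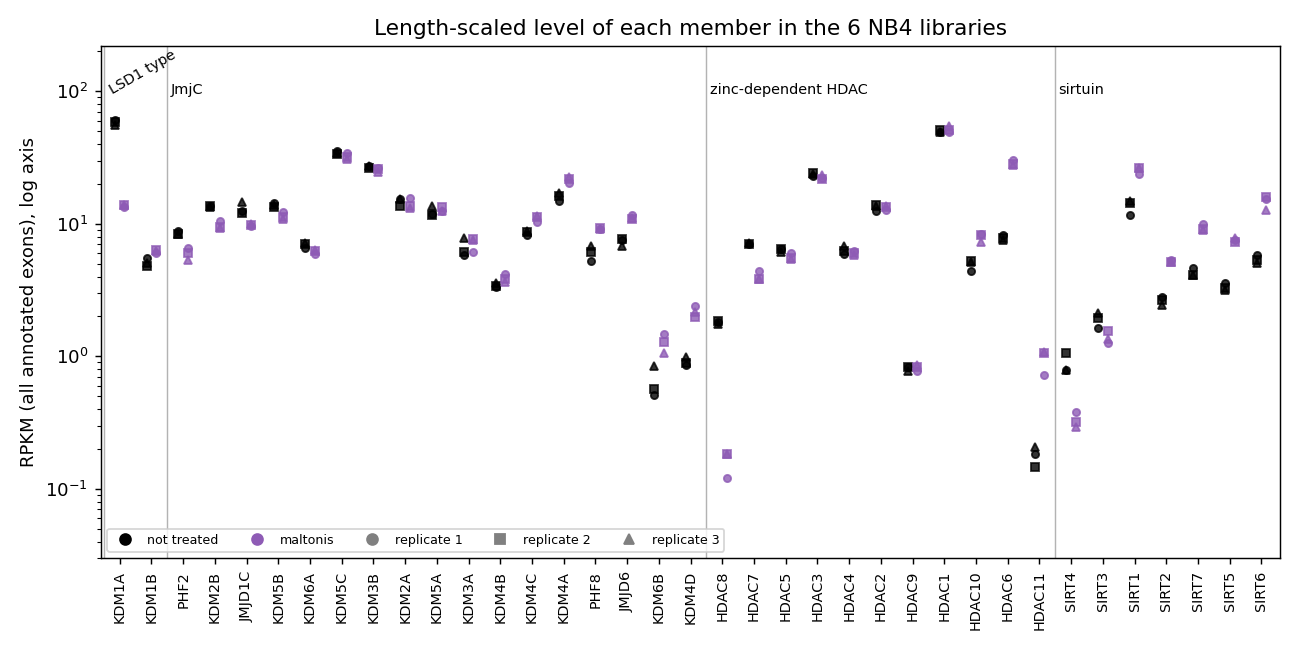
RPKM of each of the 37 genes in each library on a log axis, computed with all annotated exons; black marks not treated and purple maltonis-treated libraries, and the marker shape gives the replicate. KDM1A and HDAC1 lie highest without treatment, KDM1A and HDAC8 drop with maltonis, and HDAC6 and most sirtuins move up.

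Per length over all annotated exons, 13 of the 37 genes were above 10 RPKM without and 15 with maltonis. These counts depend on the length. With the longest transcript, KDM3A, KDM4C, HDAC6 and HDAC7 were also above 10 RPKM without treatment. With maltonis that length added KDM2B, KDM3A, KDM4B, JMJD1C, PHF8, HDAC10, SIRT5 and SIRT7. In not treated cells KDM1A (58.3 RPKM), HDAC1 (49.9), KDM5C (34.2), KDM3B (27.03) and HDAC3 (23.7) led. After maltonis the order was HDAC1 (51.3 RPKM), KDM5C (32.4), HDAC6 (28.6), KDM3B (25.8) and SIRT1 (25.5), in which KDM3B and SIRT1 lay within their spread. With the longest transcript as length, KDM1A was again first without treatment and 11th after maltonis. HDAC1, HDAC6 and HDAC3 then led after maltonis.

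Summed over the enzymes by the mark they remove, the RPKM of the H3K4 demethylases KDM1A, KDM1B, KDM5A, KDM5B and KDM5C was 127, 122 and 122 without and 78.5, 76.9 and 74.3 with maltonis. Without KDM1A the sums were 67.01, 63.2 and 66.6 against 65.1, 63.1 and 60.5, which overlap. The 9 genes of the KDM3, KDM4, PHF2 and PHF8 group, which act on H3K9, summed to 90.2 ± 4.40 RPKM without and 96.5 ± 1.16 RPKM with maltonis (SD, n = 3), and KDM6A and KDM6B, which act on H3K27, to 7.58 ± 0.45 and 7.45 ± 0.11 RPKM. Class I HDACs summed to 88.7 ± 2.12 and 87.2 ± 3.78 RPKM, class IIa to 20.6 ± 0.24 and 16.5 ± 0.77, class IIb to 12.8 ± 0.24 and 36.6 ± 1.78, and the nuclear sirtuins to 23.3 ± 0.95 and 49.5 ± 1.77 RPKM. The mitochondrial sirtuins summed to 6.12 ± 0.18 and 9.26 ± 0.15 RPKM, although SIRT3 and SIRT4 were lower. These sums describe transcripts, weight each gene by its level, and were not tested.

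**Figure D4:**
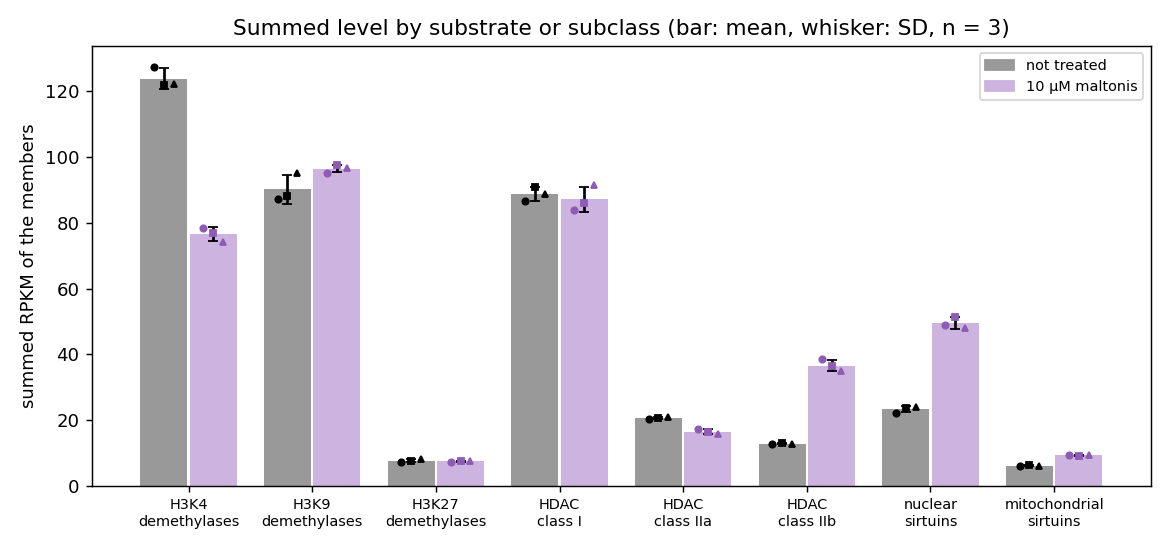
Summed RPKM of the genes by the histone mark removed or by subclass; bars are means, whiskers SD (n = 3) and points single libraries, from 0 on a linear axis. The sum is lower with maltonis for H3K4 demethylases and class IIa HDACs, and higher for class IIb HDACs and for nuclear and mitochondrial sirtuins. For H3K9 demethylases the highest not treated point (95.27) lies just under the lowest maltonis point (95.32). The points of the 2 groups overlap for H3K27 demethylases and class I HDACs.

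The subunits that hold KDM1A, HDAC1, HDAC2 and HDAC3 in complexes were counted by complex, from lists written by complex membership. Of 9 CoREST-associated genes 1 was higher and 5 lower at an FDR under 0.01, with a median log2 fold change of −0.40, and of 12 NuRD genes 2 were higher and 7 lower, with a median of −0.34. Over all tested genes 31.9% were higher and 32.1% lower, with a median of 0.01. The CoREST median was −0.27 without not treated replicate 3 and −0.53 without not treated replicate 2. RCOR2, a CoREST scaffold, fell from 19.3 ± 1.81 to 0.937 ± 0.294 CPM (SD, n = 3; log2 fold change −4.30, standard error 0.177, edgeR adjusted p = 1.63e-07), while RCOR3 was higher (log2 fold change 0.55, standard error 0.0924, edgeR adjusted p = 5.85e-04). Of the NuRD genes, CHD4, its main remodelling ATPase, fell from 737 ± 67.3 to 256 ± 5.41 CPM (SD, n = 3; log2 fold change −1.53, standard error 0.0753, edgeR adjusted p = 3.81e-07), and CDK2AP1 was also lower (log2 fold change −1.15, standard error 0.0638, edgeR adjusted p = 7.10e-07). CHD3, the alternative ATPase, and MTA2 were higher, with log2 fold changes of 0.89 and 0.24. In most fits that left out a library only 1 NuRD gene was higher.

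Beside the same 31.9% and 32.1%, the SIN3 list had 6 of 14 genes higher (42.9%) and 3 lower (21.4%), with a median of 0.19. SAP130 (1.00) and ING1 (0.94) were the most raised and FAM60A (−1.24) and BRMS1 (−0.72) the most lowered. The NCoR and SMRT list had 33.3% in either direction, with 2 of 6 genes higher, GPS2 (0.93) and CORO2A (0.52), and 2 lower, TBL1X (−1.20) and TBL1XR1 (−0.42), with a median of −0.14. That median turned to 0.06 without not treated replicate 3, and was −0.27 without not treated replicate 1 and −0.23 without maltonis replicate 1. Of the 3 genes of the mitotic deacetylase complex MiDAC, C14orf43 was lower (−0.98), which is 33.3%. No MiDAC gene was higher by edgeR, with 0 higher at an unadjusted p under 0.05 and 0 higher by DESeq2.

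Among 12 JmjC proteins outside the 37 that could be tested, of 13 listed, 7 were lower by edgeR and 0 higher (2 higher at an unadjusted p under 0.05 and 0 higher by DESeq2), with a median log2 fold change of −0.55, and 5 were lower beyond 2.5-fold. Of all tested genes 32.1% were lower, and 10.4% beyond 2.5-fold. MINA, a ribosomal protein hydroxylase, fell from 47.4 ± 1.13 to 4.74 ± 0.21 CPM (SD, n = 3; log2 fold change −3.32, standard error 0.0778, edgeR adjusted p = 2.05e-08), and C14orf169, a nucleolar hydroxylase of the same kind, from 56.3 ± 5.21 to 13.3 ± 1.56 CPM (log2 fold change −2.09, standard error 0.107, edgeR adjusted p = 4.70e-07). JMJD5 (−1.80), JMJD8 (−1.72) and JHDM1D (−1.48), which complete these 5, are named after their values were seen.

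For the cofactors, 7 of the 10 genes of NAD+ synthesis and use with enough reads to test, of 14 listed, were higher and 3 lower, beside 31.9% and 32.1% of all tested genes, with a median log2 fold change of 0.53. NMNAT2 rose from 1.32 ± 0.27 to 13.9 ± 0.57 CPM (SD, n = 3; log2 fold change 3.37, standard error 0.142, edgeR adjusted p = 1.79e-07) and NMNAT1, the nuclear enzyme that makes NAD+ from nicotinamide mononucleotide, from 11.7 ± 0.97 to 58.5 ± 1.86 CPM (log2 fold change 2.33, standard error 0.0808, edgeR adjusted p = 7.38e-08). QPRT, of synthesis from tryptophan, and CD38, which hydrolyzes NAD+, were lower, with log2 fold changes of −1.79 and −1.44. Of 18 tested enzymes, of 19 listed, that make or use 2-oxoglutarate, succinate or fumarate, 1 was higher (5.56%) and 5 lower (27.8%), with a median of −0.06, beside the same shares of all tested genes. The median turned to 0.06 with total counts as the only scaling. It was −0.15 without maltonis replicate 3, −0.02 without maltonis replicate 1, −0.13 without not treated replicate 1 and −0.03 without not treated replicate 3. IDH1 was the higher one (log2 fold change 0.75, standard error 0.0567, edgeR adjusted p = 4.29e-06). BCAT1, which transfers amino groups of branched-chain amino acids to 2-oxoglutarate, fell from 794 ± 15.2 to 171 ± 7.92 CPM (SD, n = 3; log2 fold change −2.21, standard error 0.0596, edgeR adjusted p = 2.77e-08), and GPT2 fell with a log2 fold change of −1.64. When replicate number was added as a block, this list had 3 higher genes.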

How the data were processed

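RNA-seq of NB4 cells was analysed in 3 not treated and 3 maltonis-treated libraries. The authors deposited 1 table of raw HTSeq counts per library, without normalization. The submitters’ processing notes list TopHat, Bowtie2, HTSeq and the build hg19; annotation and strand setting are not given in the sources used here. Groups and replicate numbers come from the sample labels. The labels do not say whether libraries of a group came from separate cultures, while the study calls them biological replicates; p-values measure the spread between these libraries.

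Counts were tested with edgeR 4.0.16 (R 4.3.3): TMM, filterByExpr, a quasi-likelihood test with the treatment as its single term over the 6 libraries, and p-values adjusted by Benjamini-Hochberg across 13209 genes. Genes past an FDR of 0.01 are called higher or lower, and 2.5-fold (1.32 on the log2 scale) is the study’s fold criterion. The study also asked for over 10 RPKM in the group with the higher level, which was not applied here. With the lengths used here, HDAC8 (1.80 RPKM not treated), SIRT4 (0.879 RPKM not treated) and HDAC11 (0.950 RPKM with maltonis) lay under it. RPKM used the union of exons of GENCODE version 29, found for 21642 of 23368 symbols. DESeq2 1.42.0 was an alternative. The fit was first tested on simulated data in which a small share of genes was changed. It therefore does not test the scaling where most genes are called, as here. Replicates of a group differed by more than sampling noise (chi-square per degree of freedom 4.15 to 33.1).

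Members, gene lists and tests were chosen with earlier results of these data known, and the grouping by mark and subclass after the counts were seen. Genes given by library passed the FDR with a log2 fold change beyond 0.58, or are KDM1A, KDM3B, HDAC1, HDAC2, HDAC3, SIRT1 or SIRT6; of each list, the 2 called genes with the largest rise and fall and a mean of at least 1 CPM are named, except where a gene is not reported here. Promoter sequences are from RefSeq (GRCh38.p14).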

Additional observations from a re-analysis of the deposited data

How the results depend on the processing

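No alternative reversed the direction of any of the 37 genes where it was past the threshold. DESeq2 size factors, the DESeq2 test, the replicate block and the run code as a term each kept all 24 calls, and 20 of the 24 were kept in every fit that left out a library. Of 444 refits of single genes, 18 lost a call (KDM1B, KDM5B, KDM6B and SIRT3) and 1 gained one, KDM4B with total counts as the only scaling (0.29, edgeR adjusted p = 0.00672). That scaling moved the median of all genes from 0.01 to 0.13 on the log2 scale and also lost KDM5B and SIRT3, which left 1 lower sirtuin and 1 lower mitochondrial sirtuin, 2 higher genes among the other JmjC proteins and 3 higher genes on the 2-oxoglutarate list. Without a filter on low counts, 0 LSD1-type genes were higher, since KDM1B had an adjusted p = 0.0104 with edgeR. An FDR of 0.05 gave 2 lower class IIa HDACs, 2 lower MiDAC genes, 2 higher other JmjC genes and 3 higher 2-oxoglutarate genes. With the run code as a term, 1 MiDAC gene, 1 other JmjC gene and 3 2-oxoglutarate genes were higher. Without single libraries, the counts ranged from 0 to 1 for higher LSD1-type genes, from 1 to 2 for lower sirtuins and lower mitochondrial sirtuins, from 1 to 2 for higher NuRD genes, from 0 to 1 for higher other JmjC genes and from 1 to 2 for higher 2-oxoglutarate genes. Total counts as the only scaling also raised the median log2 fold change of every list, beside the rise from 0.01 to 0.13 over all genes. The medians were then −0.28 for CoREST, −0.23 for NuRD, 0.31 for SIN3, −0.02 for NCoR and SMRT and −0.08 for MiDAC. They were −0.43 for the other JmjC proteins, 0.65 for the NAD+ list and 0.06 for the 2-oxoglutarate list, the last a change of sign. The NCoR and SMRT median changed sign without not treated replicate 3 (0.06). The cause of these shifts was not tested.

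With the replicate block, 3 genes of the 2-oxoglutarate list were higher, and no other count of calls moved by over 1.5 times. Same-numbered libraries deviated from their group means with correlations of 0.301, 0.0852 and 0.161 for replicates 1, 2 and 3, while not treated replicate 2 correlated more with maltonis replicate 3 (0.123) and maltonis replicate 2 more with not treated replicate 3 (0.139). The number was not taken as a pairing. At these depths SIRT4 and HDAC11, with 9 to 47 and 18 to 186 reads, are the least precise of the 37 genes.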
